A study of Mus musculus with 8 samples.

Results

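The nuclear-encoded subunits of oxidative phosphorylation were compared between the testes of Iqch mutant and wild-type mice. Members were taken by name: protein-coding genes of the respiratory chain complexes I to IV (the Nduf, Sdh, Uqcr and Cox4 to Cox8 families and Cyc1), of the ATP synthase (Atp5, here complex V), and both cytochrome c genes, Cycs and Cyct. The annotation holds 92 such genes and the table of read counts on genes scaled to a common total (CPM, the number of a library's reads on a gene per 1000000) holds 86 of them, among 17127 genes in all, of which 13785 are protein coding. Complex I gave 38 members, complex II 4, complex III 9, complex IV 16, complex V 17 and cytochrome c 2. All 86 passed the minimum level and were tested. Cox4i2, Cox6a2, Cox8b, Atp5mc2, Ndufb4 and a second record of Atp5po were not analysed here.

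The chain passes electrons from NADH through complex I, and from succinate through complex II, to ubiquinone, complex III, cytochrome c and finally complex IV, which reduces oxygen. The protons pumped on the way drive the ATP synthase. A few core subunits are made in the mitochondrion itself and are no members here, while the others are encoded in the nucleus, and male germ cells express their own forms of several of them beside or in place of the forms found in most tissues. In complex IV these germ cell forms are Cox6b2, Cox7b2 and Cox8c, whose widely expressed counterparts, called somatic forms below, are Cox6b1, Cox7b and Cox8a; Cyct is the testis form of cytochrome c and Cycs the somatic one.

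RNA came from whole testes of 4-month-old males, as 1 library per mouse, from 4 wild-type mice and 3 homozygous Iqch mutants (mutants 1, 2 and 4), whose genotype the labels give as Iqch-/-. A library of mutant 3 was not analysed here. The study set a mutant library aside as an outlier, so the mutant values and their spread below are those of the libraries that were kept. Iqch encodes a testis protein with an IQ motif, a calmodulin-binding sequence. The mutants descend from zygotes of the C57BL/6 x CBA cross injected with Cas9 mRNA and guide RNAs. They carry small frame-shifting deletions in Iqch in the lines Iqch mu5 and Iqch mu7, of which the study names Iqch mu7 for its RNA-seq reads over Iqch. Whether wild-type mice were littermates is not stated in the sources used here. In a whole testis, fewer cells of a type and less RNA per cell cannot be told apart.

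The libraries held between 32064384 and 37551057 reads on genes, so that 1 read was worth about 0.03 CPM. Iqch itself stood at 217, 206, 216 and 193 CPM in wild type and at 67.7, 64.8 and 69.2 CPM in the mutants, a log2 fold change of -1.63 ± 0.05 (SE; limma, adjusted p = 1.92e-10). Markers of several other cell types moved with genotype. They are set here beside 36.3% of all tested genes called higher and 14.2% called lower (limma, adjusted p under 0.01). All 8 elongating spermatid markers fell, and their summed level was 23079 to 24456 CPM in wild type and 14631 to 16772 CPM in the mutants. Of 6 round spermatid markers, 4 fell (summed level 809 to 859 and 686 to 751 CPM). Of 8 spermatocyte markers, 1 fell (1087 to 1214 and 1035 to 1114 CPM), and of 8 spermatogonial markers 4 rose (137 to 149 and 191 to 221 CPM). Among these 4 only Kit, from a mean of 21.7 to 62.2 CPM, rose under both scalings described below. Outside the germ line, 7 of 8 Leydig cell markers rose (1132 to 1345 and 4709 to 4853 CPM), as did 6 of 6 Sertoli cell markers (963 to 1045 and 2031 to 2160 CPM; 4 under both scalings), 7 of 7 macrophage markers (68.3 to 74.2 and 170 to 197 CPM), 2 of 5 endothelial markers (32.4 to 36.1 and 46.8 to 48.7 CPM) and 1 of 4 peritubular myoid markers (66.2 to 90.1 and 76.5 to 102 CPM). No marker in the table was at 0 in any library; Nanos3, Fshr, Tie1 and Tagln were not analysed here. The share of fallers among spermatocyte markers (12.5%) was near that of all genes. Under both scalings 12.5% of the spermatogonial markers rose, beside 27.0% of all genes. Sohlh1 alone of the spermatogonial markers had a log2 fold change below 0 (-0.13), and it was not called. The shares of risers among endothelial (40%) and peritubular myoid (25%) markers were near that of all genes. In these lists Vwf, Myh11 and Cnn1 had log2 fold changes below 0 (-0.21, -0.16 and -0.19), and Vwf was called lower under the second scaling. The macrophage marker Cd163 met the minimum level through the mutants only. The part of these cell types in the results below was not tested.

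Across the members, most subunit mRNAs differed little between genotypes, and a minority rose clearly. The fold change of 60 of the 86 lay within 20% of equality (1.2-fold), 9 members stood 1.5-fold or more above wild type and 4 stood 2-fold or more above, while the largest decrease left 0.856 of the wild-type level. On the deposited CPM, 34 members rose, 5 fell and 47 did not pass the test (limma on log2(CPM + 0.1), adjusted p under 0.01 over all genes), beside a background of 36.3% of all tested genes higher and 14.2% lower. Over the members the log2 fold change had a median of 0.13 and ran from -0.22 to 1.42; its median over all tested genes was 0.12. All 3 mutants lay above all 4 wild-type testes for 43 members and below them for 8; of all genes, 42.8% and 19.5% did so.

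The choice of scaling mattered for the small differences. Dividing by median-of-ratios size factors, which centre most genes on equality, lowered the median of all genes by 0.13 to -0.01 and that of the members to -0.00010. After it 17 members were higher and 20 lower, against 27.0% and 25.1% of all genes. The same 17 were higher under both scalings, and 5 were lower under both, where the background was 27.0% and 14.2% of all genes, and 31.0% and 12.7% of protein-coding genes. Thus 19.8% of the members were called higher under both scalings and 5.81% lower, both shares below those of all genes. Among the 17, Cox7a1 met the minimum level through the mutants only. All 17 risers also passed the test with any 1 library left out, as did Cox7a2 and Cox8c among the 5 that were lower; Cyct, Uqcrq and Ndufa7 lost the call in 2, 1 and 4 of the 7 such fits. Of the 34 members higher on the deposited CPM, 22 kept the call in all 7 fits and 12 lost it in at least 1, none of these among the 17. Atp5f1c lost it in all 7 fits, Cox7a2l in 6, Cycs, Ndufa6 and Uqcrb in 5, Atp5f1b, Atp5f1d and Atp5mg in 4, Atp5po and Uqcr10 in 2, and Atp5pd and Ndufs3 in 1, with adjusted p-values of 0.0102 to 0.0421 in the fits that lost them. The plot of members by complex shows how many of them lie near the median of all genes.

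**Figure D1:**
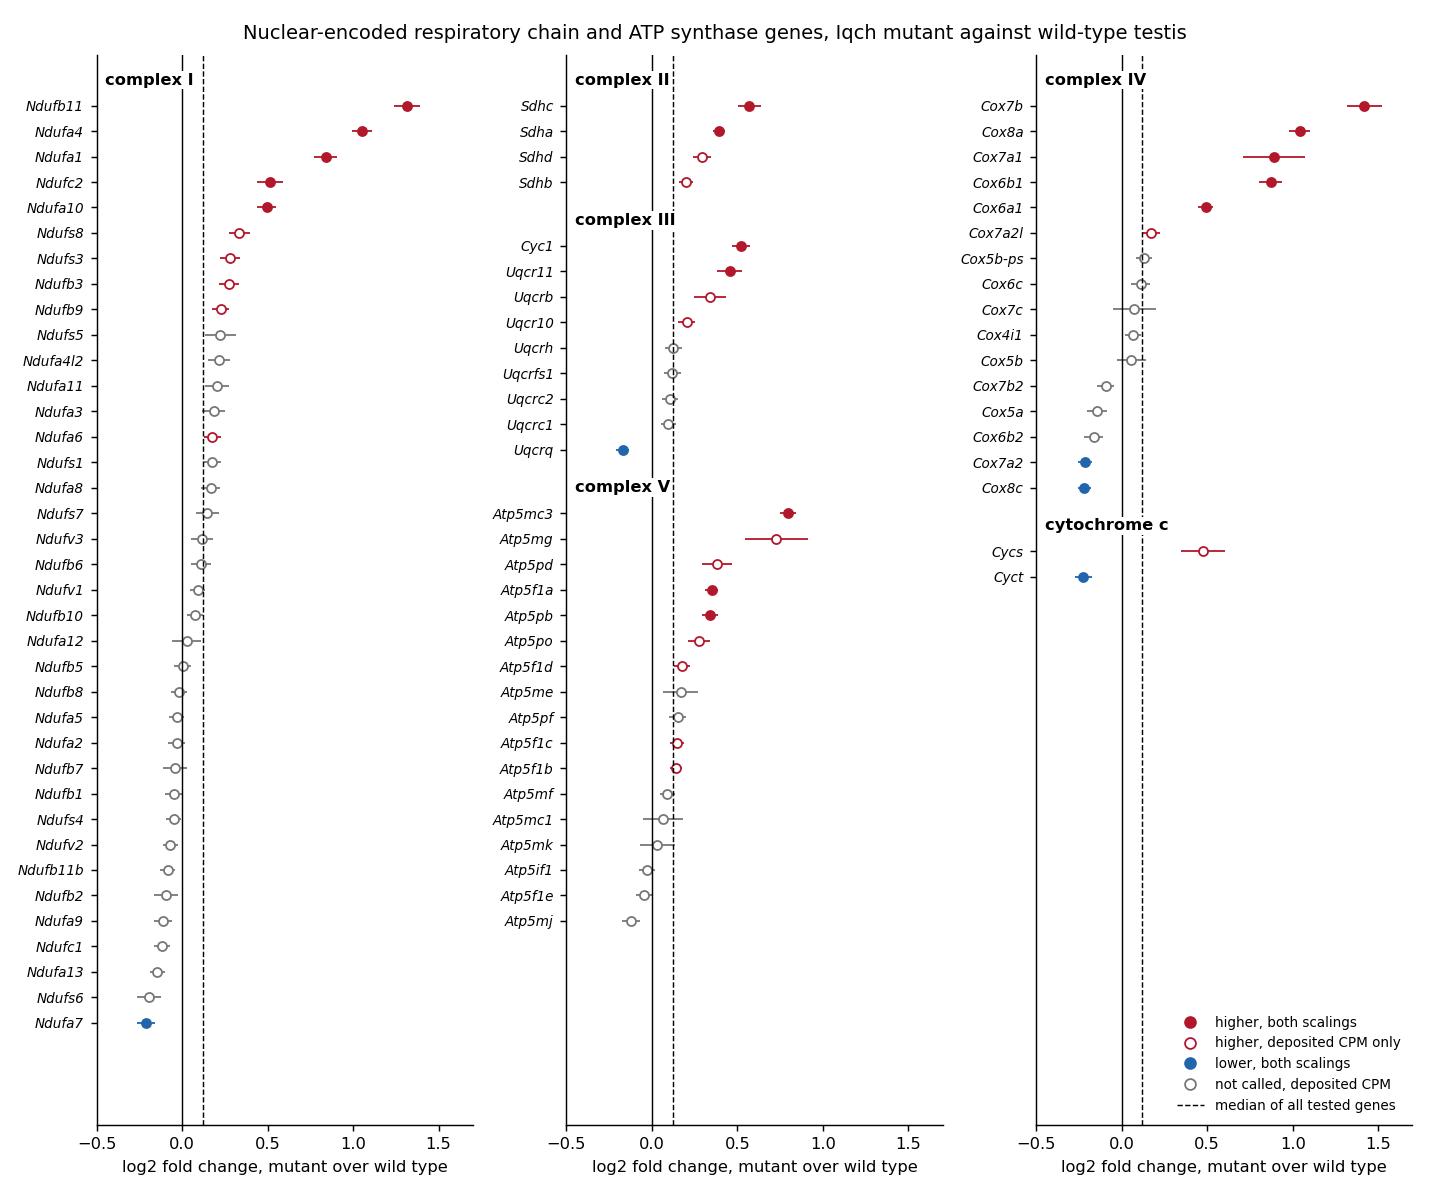
Log2 fold change (mutant over wild type, deposited CPM) of 85 of the 86 members, grouped by complex and ordered by size, with bars of 1 SE; filled red and blue points passed the test as higher or lower under both scalings, open red points as higher on the deposited CPM only, and the dashed line is the median of all tested genes at 0.12. The 17 filled red points run from 0.34 to 1.42 and the 5 filled blue points from -0.22 to -0.17.

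Levels between genes are comparable only per length, and were set as CPM per kb of the canonical transcript. The most abundant member was Cox8c at 642 CPM per kb in wild type, followed by Cox6b2 at 471, both testis forms of complex IV. Next came Cox4i1 at 322, Atp5f1b at 311 and Atp5f1e at 282 CPM per kb. Divided into 3 sets by the mean level over all libraries, the 29 least abundant members had a median log2 fold change of 0.23, with 7 higher under both scalings. The middle 29 had a median of 0.17, with 8 higher. Among the 28 most abundant, at 80.9 to 603 CPM per kb, the median was -0.03, with 2 higher (Cox6a1 and Atp5f1a) and all 5 of the lower members. Copies elsewhere in the genome, which can take or give reads, were counted too. In 14 of the 29 least abundant members, 10% or more of the read-length windows of the transcript were found at another place with at most 3 differences, against 5 of the middle and 5 of the most abundant.

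**Figure D2:**
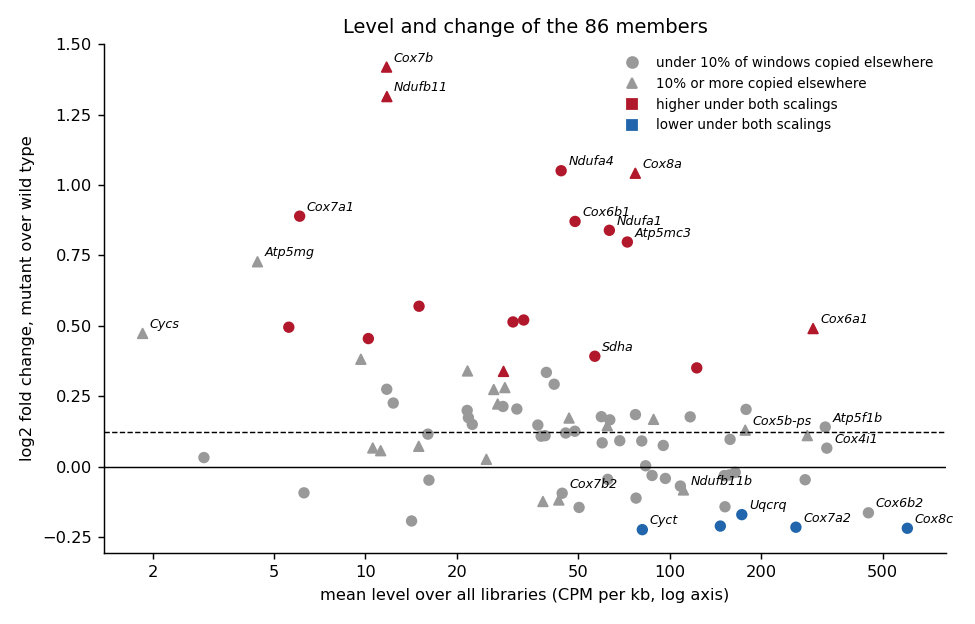
Log2 fold change of each member against its mean level over the 7 libraries in CPM per kb (log axis); red and blue mark members higher or lower under both scalings, triangles those with 10% or more of their sequence windows copied elsewhere. The largest changes, Cox7b at 1.42 and Ndufb11 at 1.31, lie among the low levels, and the 5 lower members all lie among the high ones.

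Complex I is the NADH dehydrogenase, whose core subunits hold the flavin and iron-sulphur clusters. None of the core subunits described here was called under both scalings. Ndufs8, a carrier of iron-sulphur clusters, stood at 26.9, 27.7, 29.2 and 27.6 CPM in the wild-type testes and at 33.2, 37.9 and 34.6 CPM in the mutants; the groups did not overlap, and its log2 fold change was 0.33 ± 0.06 (SE; limma, adjusted p = 4.78e-04), or 0.20 after size factors (adjusted p = 0.0101). Ndufs3 was also called on the deposited CPM alone (0.28, or 0.15 after size factors), and 47.3% of its windows had a copy elsewhere. Ndufv1, which binds NADH and the flavin, was at 111 ± 3.5 (SD) CPM in wild-type testes and 118 ± 2.7 in mutant testes; Ndufs1, Ndufs7 and Ndufv2 had log2 fold changes of 0.17, 0.15 and -0.07, and none of these passed the test on the deposited CPM. After size factors Ndufv2 was called lower (-0.20, adjusted p = 0.00138) and the value of Ndufv1 changed sign.

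Of all 38 complex I genes, 5 rose under both scalings and 1 fell (13.2% and 2.63%, beside 27.0% and 14.2% of all genes). Ndufb11, an X-linked subunit of the membrane arm, stood at 10.2, 10.9, 11.8 and 10.3 CPM in the wild-type testes and at 25.7, 28.8 and 26.5 CPM in the mutants, so that each mutant held over 2 times the level of any wild-type testis. Its log2 fold change was 1.31 ± 0.08 (limma, adjusted p = 2.99e-08), the largest of complex I, and 33.6% of its windows had a copy elsewhere. Ndufa4, long counted as a complex I subunit and now assigned to complex IV, is grouped by its name with complex I in all counts and sums here. It stood at 15.6, 16.3, 15.4 and 16.2 CPM in the wild-type testes and at 33.0, 32.7 and 33.5 CPM in the mutants. No library of one group came near the other, with a log2 fold change of 1.05 ± 0.06 (adjusted p = 2.36e-08). Its paralogue Ndufa4l2, a gene induced by low oxygen in other tissues, stood at 25.6 ± 1.6 (SD) CPM in wild-type testes and 29.7 ± 0.74 in mutant testes and did not pass the test (adjusted p = 0.0116). Of these paralogues, Ndufa4l2 held 1.46 to 1.77 times the CPM of Ndufa4 in wild type and 0.883 to 0.909 times in the mutants; this ratio was formed after the values were seen and was given no test.

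Ndufa1, an X-linked subunit needed for assembly of the membrane arm, stood at 22.0, 21.3, 19.2 and 22.9 CPM in the wild-type testes and at 38.1, 37.4 and 39.3 CPM in the mutants, without overlap, a log2 fold change of 0.84 ± 0.07 (limma, adjusted p = 4.07e-07). Ndufc2 and Ndufa10 rose by 0.51 and 0.50 on the log2 scale. Against these, Ndufa7 was the 1 complex I gene called lower, at 114, 110.0, 105 and 111 CPM in the wild-type testes and at 103, 92.1 and 90.6 CPM in the mutants. The groups did not overlap, but the difference was small, -0.21 ± 0.05 (adjusted p = 0.00366), and it passed the test in 3 of the 7 fits that left out 1 library; adjusted p was 0.0195 without mutant 2, 0.0249 without mutant 4, 0.0122 without wild type 1 and 0.0102 without wild type 2. Ndufb8, the most abundant complex I gene per length at 165 CPM per kb, held 113 ± 4.5 (SD) CPM in wild-type testes and 111 ± 3.8 in mutant testes, and the groups overlapped. After size factors 10 of the 38 complex I genes were called lower, beside 25.1% of all genes. Of these, 9 were called lower on that scaling only, among them Ndufv2, Ndufa9, Ndufa13 and Ndufc1.

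Complex II, the succinate dehydrogenase shared with the citric acid cycle, was the complex in which every member was higher on the deposited CPM, against the background of 36.3% of all genes. Sdha, the flavoprotein subunit, stood at 155, 154, 151 and 155 CPM in the wild-type testes and at 199, 204 and 202 CPM in the mutants. Every mutant was above every wild-type testis, and the spread within groups was small beside the difference, with a log2 fold change of 0.39 ± 0.04 (limma, adjusted p = 1.56e-06). Sdhc, a membrane anchor that binds ubiquinone, stood at 42.4, 35.4, 42.5 and 39.3 CPM in the wild-type testes and at 60.2, 58.4 and 58.7 CPM in the mutants, with a log2 fold change of 0.57 ± 0.07 (adjusted p = 9.58e-06). Both passed the test under both scalings. Sdhd, the other anchor, held 47.8 ± 1.4 (SD) CPM in wild-type testes and 58.6 ± 3.1 in mutant testes and Sdhb, the iron-sulphur subunit, 81.8 ± 1.6 (SD) CPM in wild-type testes and 93.9 ± 1.9 in mutant testes. Their log2 fold changes of 0.29 and 0.20 became 0.16 and 0.06 after size factors and then did not pass the test (adjusted p = 0.0165 and 0.220).

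Complex III, the cytochrome bc1 complex, gave 2 members higher and 1 lower under both scalings (22.2% and 11.1%, beside 27.0% and 14.2% of all genes). Cyc1, the cytochrome c1 subunit that hands electrons to cytochrome c, stood at 44.2, 42.0, 40.5 and 43.1 CPM in the wild-type testes and at 62.3, 58.3 and 62.2 CPM in the mutants. These groups did not overlap, with a log2 fold change of 0.52 ± 0.05 (limma, adjusted p = 2.67e-06). Uqcr11, a small subunit, rose by 0.45 ± 0.07 (adjusted p = 1.4e-04). Uqcrq, another small subunit and the most abundant of the complex per length, moved the other way, at 282, 275, 269 and 288 CPM in the wild-type testes and at 247, 242 and 253 CPM in the mutants. Its mutants were all below wild type, with a log2 fold change of -0.17 ± 0.04 (adjusted p = 0.00216). Left without mutant 2, this comparison gave an adjusted p of 0.0121. The core proteins Uqcrc1 and Uqcrc2 and the Rieske iron-sulphur protein Uqcrfs1 had log2 fold changes of 0.10, 0.11 and 0.12, none of which passed the test, and all of which were below 0 after size factors. Uqcrb and Uqcr10 were called on the deposited CPM only (0.34 and 0.20), and 87.4% of the windows of Uqcrb had a copy elsewhere.

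Complex IV, the cytochrome c oxidase, held the largest rise and the widest range of values, and its members are described first as pairs of forms. Cox6b1 (chr7:30316282-30325616 on GRCm39, the build of all gene positions here), a subunit at the outer face of the enzyme near the cytochrome c site, stood at 23.8, 24.7, 22.0 and 24.1 CPM in the wild-type testes and at 40.5, 46.8 and 42.9 CPM in the mutants, and rose by 0.87 ± 0.07 on the log2 scale (limma, adjusted p = 2.47e-07). Its testis form Cox6b2 (chr7:4754789-4756093) stood at 309.8, 276, 263 and 283 CPM in the wild-type testes and at 268, 240.5 and 248 CPM in the mutants. The Cox6b1 groups lay far apart, while those of Cox6b2 overlapped, with a log2 fold change of -0.16 ± 0.06 that passed the test after size factors only (-0.30, adjusted p = 9.66e-04).

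The next pair lies on other chromosomes. Cox7b (chrX:105055638-105066240) stood at 6.31, 6.73, 6.51 and 8.02 CPM in the wild-type testes and at 17.8, 20.6 and 17.4 CPM in the mutants, a rise of 1.42 ± 0.10 (limma, adjusted p = 1.52e-07) and the largest of all members; 17.4% of its windows had a copy elsewhere. Cox7b2 (chr5:71598701-71705630) stood at 93.5, 97.8, 99.4 and 90.1 CPM in the wild-type testes and at 85.4, 89.9 and 92.0 CPM in the mutants. Its groups overlapped, with a log2 fold change of -0.09 ± 0.05 that passed only after size factors (-0.23, adjusted p = 0.00103). In the Cox8 pair, Cox8a (chr19:7192515-7194997) stood at 27.9, 31.9, 28.8 and 30.7 CPM in the wild-type testes and at 62.6, 63.8 and 58.2 CPM in the mutants, a rise of 1.04 ± 0.06 (adjusted p = 2.95e-08). Cox8c (chr12:102865530-102866797), its testis form, stood at 328, 322, 322 and 320.5 CPM in the wild-type testes and at 288, 276 and 268 CPM in the mutants. Here both forms had groups that did not overlap, in opposite directions: Cox8c fell by 0.22 ± 0.04 on the log2 scale (limma, adjusted p = 2.55e-04), under both scalings.

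Cytochrome c itself was read in the same way. Cycs (chr6:50539541-50543557) stood at 4.16, 5.21, 5.84 and 4.87 CPM in the wild-type testes and at 6.75, 7.73 and 6.45 CPM in the mutants, a log2 fold change of 0.47 ± 0.13 (limma, adjusted p = 0.00622) that was not called after size factors (adjusted p = 0.0313) and held in 2 of the 7 fits without 1 library (without wild type 3 and without mutant 4); 37.7% of its windows had a copy elsewhere. Cyct (chr2:76184284-76196373) stood at 60.9, 61.4, 61.8 and 57.9 CPM in the wild-type testes and at 50.6, 50.2 and 54.6 CPM in the mutants. The mutants of Cyct were all below wild type, and it fell by 0.22 ± 0.05 (adjusted p = 0.00203) under both scalings; without mutant 1 or mutant 2 the adjusted p was 0.0104 or 0.0117.

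**Figure D3:**
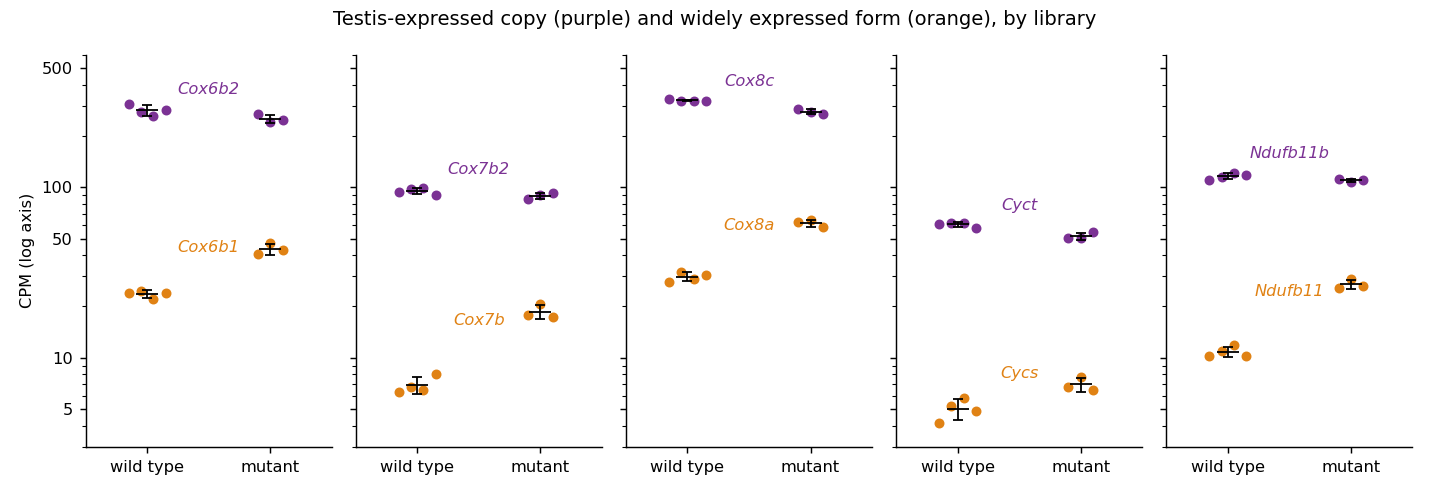
CPM of each testis-expressed gene (purple) and its widely expressed counterpart (orange) in the 4 wild-type and 3 mutant testes, on a log axis; points are libraries, and black bars the mean ± SD. The orange points of the mutants lie above those of wild type in all 5 panels, while the purple means of the mutants lie slightly below those of wild type.

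Within each library, the ratio of testis form to somatic form does not depend on scaling. The Cox6b2/Cox6b1 ratio of CPM was 11.1 to 13.0 in wild type and 5.13 to 6.63 in the mutants, 2.05-fold lower in geometric mean. For Cox7b2/Cox7b it was 11.2 to 15.3 and 4.37 to 5.30, 2.88-fold lower. Neither pair had overlapping groups. For Cox8c/Cox8a it was 10.1 to 11.7 and 4.33 to 4.61, 2.40-fold lower. For Cyct/Cycs it was 10.6 to 14.7 and 6.49 to 8.47, 1.63-fold lower. Thus in all 4 pairs every mutant lay below every wild-type testis. On the log2 scale the differences were -1.04 ± 0.12, -1.53 ± 0.13, -1.26 ± 0.06 and -0.71 ± 0.15 (SE, n = 4 and 3), each with an exact two-sided permutation p of 0.029 (adjusted over the 4 pairs 0.029), the smallest that the 35 arrangements of 4 and 3 libraries can give; doubling the smaller tail instead gives 0.057. Per length, the testis form still held the larger part in the mutants: Cyct stood at 33.9 times the level of Cycs (55.3 in wild type), and Cox7b2 at 2.34 times that of Cox7b (6.77 in wild type). Values per length rest on the canonical transcripts, of 3164 bases for Cycs and 699 for Cyct, and the transcripts used in testis were not examined. Of the windows of Cycs, 37.7% had a copy elsewhere.

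Seen as a share of the pair's reads, the somatic form took 7.74% ± 0.45 (SD, n = 4) for Cox6b1, 6.77% ± 0.94 for Cox7b, 8.47% ± 0.53 for Cox8a and 7.65% ± 0.93 for Cycs in wild type. In the mutants (n = 3) the shares were 14.7% ± 1.60, 17.2% ± 1.37, 18.2% ± 0.53 and 11.9% ± 1.40. The sums of both forms, which unlike the ratios depend on scaling, were 306 ± 20 and 296 ± 11 CPM for the Cox6b pair and 102 ± 3.7 and 108 ± 3.9 CPM for the Cox7b pair, both with overlapping groups, and 353 ± 2.1 and 339 ± 12 CPM for the Cox8 pair and 65.5 ± 2.1 and 58.8 ± 2.0 CPM for cytochrome c, both with the mutants below wild type. For the Cox8 pair the gap was narrow, with mutant 1 at 350.2 CPM and wild type 3 at 350.9 CPM.

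**Figure D4:**
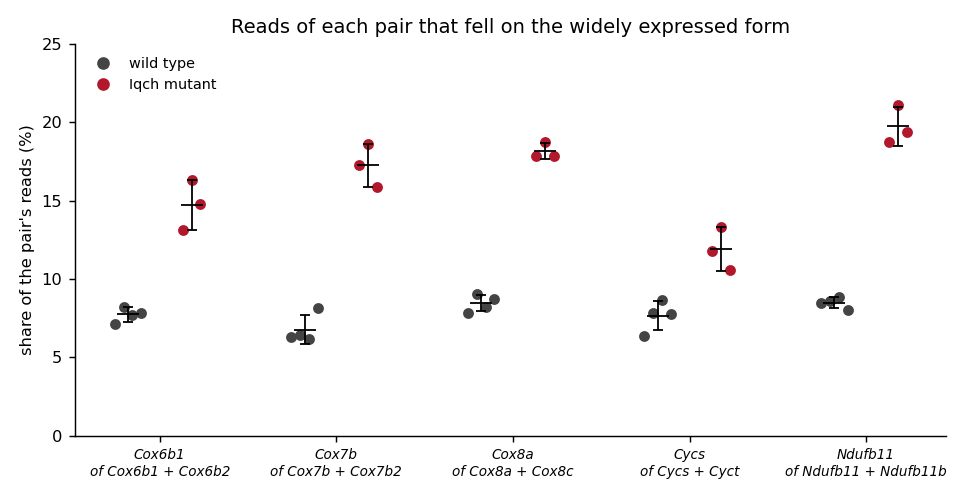
Share of each pair's reads (in %, from 0) that fell on the widely expressed form, for each wild-type (grey) and mutant (red) testis, with the mean ± SD. Wild-type libraries lie between 6.15% and 9.03% and mutant libraries between 10.6% and 21.1%, with no overlap in any pair.

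The forms of a pair differ in sequence. Cox6b2 and Cox6b1 share 64.5% of their coding bases, Cox7b2 and Cox7b 64.8%, and Cyct and Cycs 77.3%, with 53.3%, 50% and 86.7% identical residues. None of the windows of Cox6b1, Cox6b2, Cox7b2, Cox8c or Cyct had a copy elsewhere, and 12.5% of those of Cox8a had one. The promoters of 5 of the forms (RefSeq, build GRCm38.p6, a window spanning the annotated start) are printed to show where motif letters known from promoters of respiratory genes lie: Cycs, Cox6b1 and Cox8a carry such letters, and Cyct and Cox6b2 carry none of them. Neither form of the Cox7b pair carries any, and Cox8c was not matched, so the forms differ in these letters in 2 of the 4 pairs. Capitals mark TGACGTCA, the cAMP response element (CRE), and GCATGCGC, part of the nuclear respiratory factor 1 (NRF1) site, in Cycs. They also mark CCGGAAG on either strand, the ETS site read by GABP, in Cox6b1 and Cox8a.
Cycs, chr6:50566520-50566819, minus strand: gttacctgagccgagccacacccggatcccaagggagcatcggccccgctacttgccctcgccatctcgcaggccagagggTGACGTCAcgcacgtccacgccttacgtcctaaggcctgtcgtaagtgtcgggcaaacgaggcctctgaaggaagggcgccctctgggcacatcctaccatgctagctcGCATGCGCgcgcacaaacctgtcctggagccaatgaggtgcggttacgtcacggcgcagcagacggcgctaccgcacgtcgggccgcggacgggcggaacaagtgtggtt
Cyct, chr2:76360404-76360703, minus strand: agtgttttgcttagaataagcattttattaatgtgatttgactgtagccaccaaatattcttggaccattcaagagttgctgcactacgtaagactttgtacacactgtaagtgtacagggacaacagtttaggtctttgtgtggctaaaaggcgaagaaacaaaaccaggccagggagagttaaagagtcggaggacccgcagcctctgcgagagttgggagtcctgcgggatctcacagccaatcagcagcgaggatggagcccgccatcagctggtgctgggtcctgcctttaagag
Cox6b1, chr7:30626065-30626364, minus strand: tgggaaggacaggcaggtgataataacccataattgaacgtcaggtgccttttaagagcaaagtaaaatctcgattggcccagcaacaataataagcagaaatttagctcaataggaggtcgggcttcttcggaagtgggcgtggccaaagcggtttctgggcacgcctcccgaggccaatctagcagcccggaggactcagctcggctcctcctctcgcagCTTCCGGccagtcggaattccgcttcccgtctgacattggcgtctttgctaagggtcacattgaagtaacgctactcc
Cox6b2, chr7:4753045-4753344, minus strand: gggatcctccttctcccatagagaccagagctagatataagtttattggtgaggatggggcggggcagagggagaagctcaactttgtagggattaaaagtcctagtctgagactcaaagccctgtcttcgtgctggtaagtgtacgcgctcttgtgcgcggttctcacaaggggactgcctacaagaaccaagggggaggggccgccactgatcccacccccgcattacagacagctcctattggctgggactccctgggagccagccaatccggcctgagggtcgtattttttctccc
Cox8a, chr19:7217567-7217866, minus strand: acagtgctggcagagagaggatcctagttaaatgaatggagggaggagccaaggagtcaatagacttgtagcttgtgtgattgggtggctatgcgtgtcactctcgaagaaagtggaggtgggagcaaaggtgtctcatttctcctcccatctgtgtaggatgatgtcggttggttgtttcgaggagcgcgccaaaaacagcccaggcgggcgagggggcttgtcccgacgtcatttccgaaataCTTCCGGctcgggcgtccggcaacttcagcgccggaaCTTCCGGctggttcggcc
In Cycs the CRE letters begin at position -169 and the NRF1 letters at -60 from the start, and in Cox6b1 the ETS letters begin at -28. The Cycs promoter holds 32 CpG dinucleotides and that of Cyct 8, and the promoters of Cox6b1 and Cox6b2 hold 17 and 10. The promoters of Cox7b and Cox7b2, which are not printed, hold 5 and 10. Such a match is a description of letters and not a measured binding site.

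Over the 67 members with a RefSeq promoter, the NRF1 letters were found in 10 (14.9%; 3.94% of 17492 protein-coding genes), the ETS letters in 16 (23.9%; 12.9%) and the CRE letters in 5 (7.46%; 2.54%). Of the 10 members with the NRF1 letters, among them Sdhb, Uqcrc1, Cox6a1 and Cycs, 2 rose under both scalings, with a median log2 fold change of 0.20; of the 57 without, 12 rose and 3 fell, with a median of 0.12. Of the 16 with the ETS letters, 4 rose, with a median of 0.29, and of the 51 without, 10 rose and 3 fell, with a median of 0.12. These subsets were not tested against each other.

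The other complex IV subunits gave 3 further genes called under both scalings. In all, 5 of the 16 complex IV members rose and 2 fell under both scalings (31.25% and 12.5%). These shares were near the 27.0% and 14.2% of all genes. Cox6a1, the widely expressed form of subunit VIa and an abundant mRNA at 252 CPM per kb, stood at 144, 146, 138 and 147 CPM in the wild-type testes and at 210.4, 204 and 192 CPM in the mutants, a rise of 0.49 ± 0.04 (limma, adjusted p = 1.14e-06), without overlap; 18.9% of its windows had a copy elsewhere. Cox7a1, the heart and muscle form of subunit VIIa, was among the lowest of the members, at 1.5, 2.5, 1.8 and 2 CPM in the wild-type testes and at 3.33, 3.4 and 4.24 CPM in the mutants. Its mutants were all above wild type, with a log2 fold change of 0.89 ± 0.18 (limma, adjusted p = 1.0e-03). In wild type only library 2 reached the minimum of 2.2 CPM, so Cox7a1 entered the test through the mutants, where it was high. Its call is therefore not independent of that filter. Cox7a2, the form found in most tissues, stood at 218, 234, 216 and 231 CPM in the wild-type testes and at 198, 189 and 194 CPM in the mutants and fell by 0.22 ± 0.04 on the log2 scale (adjusted p = 7.03e-04). Thus the abundant form of VIIa was lower and the sparse muscle form higher, although Cox7a1 still held at most 0.022 of the CPM of Cox7a2 in a mutant.

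The remaining subunits had smaller fold changes. Cox4i1, the regulatory subunit that binds ATP, stood at 265, 247, 236 and 259.6 CPM in the wild-type testes and at 275, 261 and 254 CPM in the mutants; Cox5a at 112 ± 6.9 (SD) CPM in wild-type testes and 102 ± 7.1 in mutant testes; and Cox6c at 138 ± 9.6 (SD) CPM in wild-type testes and 149 ± 7 in mutant testes. The groups overlapped for all of these and none passed the test on the deposited CPM, while after size factors Cox5a was called lower (-0.28, adjusted p = 0.00197) and Cox4i1 and Cox6c took values below 0. Cox7a2l, which joins complexes III and IV into supercomplexes, was called on the deposited CPM only (0.17, or 0.04 after size factors), and 53.5% of its windows had a copy elsewhere. Cox7c was at 7.93 ± 1.3 (SD) CPM in wild-type testes and 8.28 ± 0.7 in mutant testes, with 67.9% of windows copied, and did not pass the test. For subunit Vb, the listed Cox5b stood at 9.93 ± 0.57 (SD) CPM in wild-type testes and 10.3 ± 0.45 in mutant testes and Cox5b-ps, a single-exon copy annotated as protein coding on chromosome 13, at 84.6 ± 4 (SD) CPM in wild-type testes and 92.4 ± 2.2 in mutant testes. Their coding sequences are 99.2% identical, so reads cannot be divided between them with certainty; their sum was 94.5 ± 4.2 CPM in wild type and 103 ± 2.1 CPM in the mutants.

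Complex V, the ATP synthase, had 9 of 17 members higher on the deposited CPM (52.9%, beside 36.3% of all genes). Of these, 3 were higher under both scalings (17.6% of the complex, beside 27.0% of all genes). The rotor ring of subunit c is encoded by several genes for the same mature protein. Of these Atp5mc3 stood at 54.6, 56.0, 51.7 and 55.3 CPM in the wild-type testes and at 93.4, 95.7 and 94.8 CPM in the mutants, with tight groups that did not overlap and a log2 fold change of 0.80 ± 0.05 (limma, adjusted p = 2.74e-08), the largest of the complex. Atp5mc1 stood at 6.34 ± 0.65 (SD) CPM in wild-type testes and 6.64 ± 0.76 in mutant testes and did not pass the test (adjusted p = 0.643); 84.7% of its windows had a copy elsewhere. In the catalytic head, Atp5f1a, the alpha subunit, stood at 273, 266, 267 and 277 CPM in the wild-type testes and at 353, 335 and 348 CPM in the mutants, a rise of 0.35 ± 0.04 (adjusted p = 5.02e-06). Its partner Atp5f1b, the catalytic beta subunit and the most abundant of the complex, stood at 619, 591, 584 and 599 CPM in the wild-type testes and at 666, 653 and 659 CPM in the mutants. The beta subunit groups did not overlap either, yet its log2 fold change of 0.14 ± 0.04 (adjusted p = 0.00412) was close to the median of all genes, became 0.01 after size factors and held in 3 of the 7 fits without 1 library, those without wild type 1, 3 or 4.

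In the peripheral stalk, Atp5pb rose by 0.34 ± 0.05 under both scalings (limma, adjusted p = 4.24e-05), and Atp5po and Atp5pd were called on the deposited CPM only (0.27 and 0.38). Atp5mg, at 1.88 ± 0.4 (SD) CPM in wild-type testes and 3.16 ± 0.47 in mutant testes, was called on the deposited CPM only as well, with 55.8% of its windows copied elsewhere. Atp5if1, the inhibitor that stops the enzyme from running backwards, stood at 105, 103, 111 and 101 CPM in the wild-type testes and at 103, 106 and 100.3 CPM in the mutants. Its groups overlapped, with a log2 fold change of -0.03 ± 0.05, or -0.16 (adjusted p = 0.00851) after size factors, when it was called lower together with Atp5f1e and Atp5mj.

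Summed over the members of a complex, CPM in the mutants was 1.28 times wild type for complex II (413 ± 5.3 and 323 ± 3.8 CPM), 1.13 times for complex V (2052 ± 20 and 1816 ± 26 CPM), 1.05 times for complex III, 1.04 times for complex I and 1.02 times for complex IV, and 0.897 times for cytochrome c. After size factors the same ratios were 1.16 for complex II, 1.03 for complex V, 0.959 for complex III, 0.948 for complex I, 0.930 for complex IV and 0.817 for cytochrome c. Complex II was therefore the complex whose sum lay above wild type, without overlap, under both scalings, and cytochrome c was below it under both. Complexes I, III and IV changed side with the scaling.

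**Figure D5:**
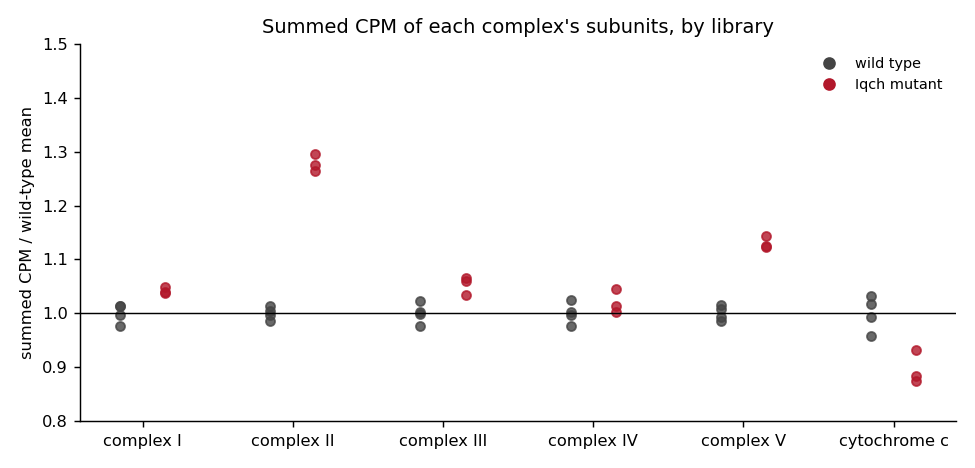
Summed CPM of the members of each complex in every library, divided by the mean of the 4 wild-type testes (deposited CPM; the axis starts at 0.8 and the line marks 1). The 3 mutants lie at a mean of 1.28 for complex II and 1.13 for complex V, and below wild type for cytochrome c.

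The X-linked members were set beside the autosomal ones after their values were seen. Only Ndufa1, Ndufb11 and Cox7b of the 86 are X-linked, and all 3 rose under both scalings, by 0.84, 1.31 and 1.42 on the log2 scale; of the 83 autosomal members 14 rose and 5 fell under both, with a median of 0.13. Among all tested protein-coding genes, 48.9% of 524 on the X chromosome and 30.3% of 13238 on autosomes were higher under both scalings, with medians of 0.47 and 0.17. Among the X-linked members, 2 have an autosomal counterpart in these data: Cox7b2 for Cox7b, and for Ndufb11 the single-exon gene Ndufb11b on chromosome 15, which shares 76.4% of its coding bases and 68.6% of its residues with it. Ndufb11b stood at 111, 115, 121 and 118 CPM in the wild-type testes and at 112, 108 and 110.1 CPM in the mutants, with overlapping groups and a log2 fold change of -0.08 ± 0.04 (limma, adjusted p = 0.117). The Ndufb11b/Ndufb11 ratio of CPM was 10.3 to 11.5 in wild type and 3.74 to 4.34 in the mutants, given here without a test.

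Genes that build the complexes were set beside the subunits. Of 46 assembly factors, 16 rose and 3 fell under both scalings (34.8% and 6.52%, beside 27.0% and 14.2% of all genes), with a median log2 fold change of 0.29. The largest rise was that of Surf1, an assembly factor of complex IV, from 9.77 to 17.6 CPM (0.84 ± 0.07). The largest fall was that of Ndufaf3, an assembly factor of complex I, from 762 to 222 CPM (-1.78 ± 0.05; limma, adjusted p = 6.4e-11), larger than any change among the subunits. Of 13 citric acid cycle enzymes, 4 rose under both scalings, with a median of 0.19. Their share of 30.8% was near the 27.0% of all genes and the 31.0% of protein-coding genes. The largest rise was that of Suclg2, a subunit of succinate-CoA ligase, at 1.32 ± 0.08. Of 13 regulators of mitochondrial gene expression, 2 rose and 1 fell under both scalings (15.4% and 7.69%), both below the shares of all genes. The riser with the largest change was Tfb1m (0.62 ± 0.14), which methylates mitochondrial ribosomal RNA, and the 1 that fell was Tfam, which packages mitochondrial DNA, from 205 to 157 CPM (-0.38 ± 0.07; adjusted p = 2.7e-04). Nrf1, the factor named above, stood at 27.0 and 27.4 CPM and did not pass the test.

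Other energy genes with separate testis and somatic forms were set beside the pairs. Of 5 testis forms (Ldhc, Pgk2, Gapdhs, Pdha2 and the ATP/ADP carrier Slc25a31), 4 fell under both scalings, with a median log2 fold change of -0.27; the largest fall was that of Gapdhs, the sperm glyceraldehyde-phosphate dehydrogenase, at -0.42 ± 0.05. Of 6 somatic forms, 4 rose and 1 fell, with a median of 0.86. Pdha1, the X-linked subunit of pyruvate dehydrogenase, rose most, from 4.98 to 12.8 CPM (1.35 ± 0.11), and Ldha, a lactate dehydrogenase subunit abundant in testis at 942 CPM, fell by 0.18 ± 0.04.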

How the data were processed

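Paired-end RNA-seq libraries of whole testes were trimmed, aligned to GRCm39 with Subread and counted per gene with featureCounts, and the authors deposited the counts as CPM, keeping genes that reached 75 reads in at least 2 libraries of either genotype. In the files, every value was a whole multiple of the value of 1 read (tolerance 0.01 reads) and each column summed to 1000000, so the values are relative to the reads on the listed genes. The authors tested counts with edgeR and DESeq2; here only CPM were used. Values were tested as log2(CPM + 0.1) with limma 3.58.1 (linear model, empirical Bayes with a mean trend) in R 4.3.3, for genes that reached 2.2 CPM in at least 2 libraries of either genotype, with Benjamini-Hochberg adjustment over all genes tested and a threshold of 0.01. A fold change on this scale understates that of low genes. The fit was tested on simulated data with known changes. Nothing in the sources used here says whether counting used strand.

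Calls were repeated after division by size factors (median of ratios), with pseudocounts of 1 and 0.01, with no minimum and one of 5 CPM, with the replicate number as a block, and without each library in turn. Ratios of testis to somatic forms were compared by exact two-sided permutation over libraries. The labels say nothing of litters or days beyond 1 mouse per library, so p-values cover the spread between these mice only. Identifiers were matched to GENCODE M39 (17045 of 17127 found). Windows of each canonical transcript, stepped by 5 bases, were aligned to GRCm39 with minimap2 2.31-r1302 to count copies, and promoters and motifs were read from RefSeq (72 promoters of 67 members).

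Members and gene lists were chosen with earlier results of these data known. The text names the 4 testis forms and their counterparts, the tissue-specific and ubiquitous forms of Cox4 to Cox8, Ndufa4 and the subunit c genes, complex II, Cyc1, core subunits of complex I, and in each complex the most abundant gene per length and the largest called rise and fall; 1 member is counted but not reported by name here, and other genes were named after their values were seen. Of other lists, the largest called rise and fall are named.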

Additional observations from a re-analysis of the deposited data

Results flagged for a closer look

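Among 42 groups of 4 wild-type values tested for a stray library (38 named members and the 4 ratios), 2 had a library far from the others, where chance gives about 1 in 20. For Sdhb, wild type 1 stood at 84.2 CPM and the other wild-type libraries at 80.7 to 81.3 CPM, all below the mutants. For the log2 ratio of Cox7b2 to Cox7b, wild type 4 stood at 3.49 and the others at 3.86 to 3.93, all above the mutants. What set these libraries apart was not tested.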

How the results depend on the processing

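Scaling changed more than any other choice. With size factors, 4294 genes were lower against 2428 on the deposited CPM, 17 members higher against 34, and 20 lower against 5. The members' median log2 fold change turned to -0.00010, and values turned below 0 for the named members Atp5mc1 (-0.067), Cox4i1 (-0.070), Cox5b (-0.077), Cox6c (-0.025), Cox5b-ps (-0.0056), Cox7c (-0.062), Ndufv1 (-0.043), Uqcrc1 (-0.038), Uqcrc2 (-0.027) and Uqcrfs1 (-0.016), none of them called on either scaling. This follows from the construction, which lowers every fold change by about 0.13.

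Pseudocounts of 1 and 0.01, no minimum and a minimum of 5 CPM kept every member named by the rule and tested by them on its side of the threshold. Leaving out each library in turn gave 2 to 7 members lower (2 without mutant 2, 7 without wild type 3) and 25 to 32 higher. Over the same fits the log2 fold change ranged from -0.013 to 0.15 for Atp5mc1, from -0.0040 to 0.18 for Cox7c and from -0.049 to 0.0083 for Ndufb8. The log2 ratio differences ranged from -1.13 to -0.95 for Cox6b2/Cox6b1, -1.63 to -1.46 for Cox7b2/Cox7b, -1.30 to -1.23 for Cox8c/Cox8a and -0.80 to -0.61 for Cyct/Cycs. These designs cannot pass 0.05: 3 libraries against 3 allow an exact p of 0.1 and 4 against 2 allow 0.067.

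Same-numbered wild-type and mutant samples did not deviate together (r = 0.026, 0.0094 and -0.098 for numbers 1, 2 and 4). With the replicate number as a block, 25 members were higher and 6 lower, Cox7c was at -0.0040, and the ratio differences were -1.04, -1.48, -1.25 and -0.77, where 3 pairs allow no exact p under 0.25. An edgeR test on whole reads recovered from the CPM was planned and not run.

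At about 0.03 CPM per read, depth bears most on the lowest members, Cox7a1 and Atp5mg, at about 1.9 CPM in wild type. Read assignment limits members with many copies, above all Ndufs5, Uqcrb, Atp5mc1, Cox5b-ps and Cox7c.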
